A study of Mus musculus with 12 samples.

Results

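The response of osteoblast precursor cells to bone morphogenetic protein 4 (BMP4) alone was described from 6 of the 12 RNA-seq libraries of the series, chosen by their treatment labels. All libraries came from MC3T3-E1, an established line of mouse calvarial cells that serves as a model of the committed osteoblast precursor. The series crossed BMP4 with tumour necrosis factor alpha (TNFa), with 3 libraries in each of 4 groups, to examine what either factor does to gene expression in such cells. The 3 untreated libraries received neither factor, and the 3 BMP4 libraries received BMP4 at 10 ng/mL for 3 h without TNFa. Every culture, the untreated ones included, was first moved to medium with 2.5% serum for 30 min. The 6 remaining libraries had TNFa at 10 ng/mL, alone or with BMP4, and they share the model that estimates the spread and give the BMP4 effect in TNFa-treated cells; the labels give both 30 min before BMP4 and 3 h for TNFa. Titles of the 3 libraries with TNFa alone also carry the term p65, those with TNFa and BMP4 do not, and what it marks is not given in the sources used here. Replicate 1 of each group belonged to batch 1 and replicates 2 and 3 to batch 2, as the labels number them. A single cell line stands behind all values, and no label says that replicates are separate cultures, so the spread that the p-values rest on may be technical.

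BMPs are secreted ligands of the TGF-beta superfamily that bind type I and type II serine/threonine kinase receptors. The activated receptors phosphorylate SMAD1, SMAD5 and SMAD9, which enter the nucleus with SMAD4 and bind GC-rich elements near target genes such as the Id genes and the inhibitory Smads. In cells of the skeletal lineage the pathway is known for inducing the transcription factors that lead to bone and cartilage.

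The 6 libraries held 13737314 to 15211103 tags (the series reached 20579256). Depth did not separate the untreated libraries, at 13890822 to 15211103 tags, from the BMP4 libraries, at 13737314 to 14378726. Values below are the deposited log2 levels. Their first principal component, with 48% of the variance, separated the batches, so each difference was estimated with batch in the model. Of 12 osteoblast precursor markers, 11 were above the minimum level for testing, among them Col1a1 at 17.33 and Runx2 at 10.52 in untreated cells. The lowest of the 11 were Sp7 at 5.13 and Msx2 at 4.86. The remaining marker of the 12, the alkaline phosphatase gene Alpl, was at 0.33 in untreated cells and stayed below the minimum. No list of cartilage cell markers was checked. The cartilage genes Sox9, at 12.3 in untreated cells, and Col2a1, described below, both lay above Runx2. Markers of adipocytes were all below the minimum, with 4 of 7 listed at 0 in every library. Of 11 leukocyte markers 3 were above the minimum, Cd14 at 5.94, Lyz2 at 4.74 and Cd68 at 4.48 in untreated cells, and 4 were at 0 in every library, Adgre1, Cd3e and Tyrobp among them. Of 8 endothelial and mural markers 3 were above it, Cspg4 at 12.25, Mcam at 6.15 and Pecam1 at 4.83, and Kdr and Emcn were at 0. None of these 6 markers was called. The summed linear level of the endothelial and mural list was 4750 to 5150 in untreated and 4620 to 7370 in BMP4 libraries, and the part of such cells in the values was not tested. Of the epithelial list, described with the keratins, Epcam and Cldn4 were at 0.

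After 3 h of BMP4 transcripts of many kinds had changed, and the largest rises were larger than the largest falls. Of 25124 entries in the table, 11765 had a mean level of at least 4 over the 12 libraries and were tested, and 1438 passed an adjusted p of 0.05 in limma (12.2%). Of these, 794 rose (6.75% of genes tested) and 644 fell (5.47%), against a median difference over all tested genes of -0.000101. Under quantile normalization the split turned, with 605 higher and 687 lower. The 15 largest rises ran from 1.30 to 2.08 on the deposited log2 scale and the 15 largest falls from 0.64 to 0.87. The direction was the same in both batches for 1435 of the called genes, and 1079 had the larger absolute difference in batch 1, which has 1 library per group. Counts of calls depended on single libraries and on the batch term: 756 genes passed without untreated replicate 1 and 951 without BMP4 replicate 1, and 114 passed with no batch term in the model, which dropped 236 of the 286 called genes that the lists and the largest changes hold. Each of the 30 genes with the largest changes kept its call in all 6 fits that left out 1 library. They were picked by size and call from these same libraries, so this is no separate support. Of the 286 genes, 151 kept their call in all 6 fits. At low levels, differences of the deposited log2 values are compressed against the authors' fold changes. Among called genes with a mean level between 4 and 6 the fitted difference was at the median 0.356 of the fold change in the authors' deposited table, and above 10 it was 0.918 of it. Differences of weakly detected genes are thus smaller here than in that table, and which is nearer the true size was not tested. By the adjusted p of the authors' deposited table, 514 of the tested genes were higher (4.37%) and 345 lower (2.93%), and 842 of these 859 were called here in the same direction.

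In bulk RNA, more cells making a transcript and more transcript per cell cannot be told apart, and each statement below concerns the population. Differences are given as BMP4 minus untreated on the log2 scale ± SE, from 3 against 3 libraries. Levels are listed for replicates 1, 2 and 3 in that order, and gene positions are the deposited ones on mm10. The gene lists were drawn up with earlier results of these data known, so each is described by its count and its median, with no test of the list. The counts of each list stand beside shares of 6.75% higher and 5.47% lower over all genes tested. Overlaps with another gene model are stated where they cover more than 20% of a named gene's exon bases. Where leaving out 1 library moved a list's count of rises or of falls by more than 1.5 times, both counts without that library are given, and the same factor is used to give a gene's value without 1 library or within batch 2 alone. Counts of the described lists that quantile normalization moved by more than this factor are given as well.

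The established Id and inhibitory Smad targets set the scale. Of the 19 tested genes on a list of direct BMP targets and feedback inhibitors, 13 rose and 0 fell (median 0.67). Id3 rose by 1.84 ± 0.07, Smad7 by 1.90 ± 0.11, Id1 by 1.66 ± 0.08 and Smad6 by 1.30 ± 0.10. Atoh8, a basic helix-loop-helix factor, stood at 8.20, 8.83 and 8.81 without BMP4 and 11.04, 10.33 and 10.43 with it (1.99 ± 0.17). Smad4, the shared partner of receptor Smads, was at 10.75, 10.74 and 10.81 without BMP4 and 10.91, 10.79 and 10.71 with it, a difference of 0.04 ± 0.05 (limma, adjusted p = 0.723).

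Outside those families the largest rise on the deposited log2 scale was that of Snai1, a zinc-finger repressor best known for silencing epithelial genes. At Snai1 (chr2:167538195-167542811, plus strand) the levels were 9.03, 9.12 and 9.24 without BMP4 and 11.50, 11.05 and 11.08 with it, a rise of 2.08 ± 0.08, and every BMP4 library lay above every untreated one. Separation of this kind upwards was seen for 7.73% of genes tested, and downwards for 6.91%. Gadd45b, a stress-inducible regulator of the p38 and JNK kinases, was at 9.80, 9.50 and 9.69 without BMP4 and 11.92, 11.41 and 11.46 with it (1.93 ± 0.07). Pmepa1, a membrane protein that restrains TGF-beta signalling by binding Smads, stood at 8.85, 8.83 and 8.91 without BMP4 and 10.84, 10.13 and 10.10 with it (1.49 ± 0.14). For this gene the batch 1 BMP4 library was the highest of the 3. Gse1, a subunit of histone deacetylase complexes, was at 9.73, 9.36 and 9.47 without BMP4 and 11.57, 10.58 and 10.54 with it (1.38 ± 0.11). Its exons overlap Gins2 on the opposite strand over 26.6% of their bases, and whether the counting used strand is not given in the sources used here. Snai2, the second Snail family member, rose by 0.68 ± 0.07, and Zfp36l1, an RNA-binding protein that shortens messenger lifetimes, by 0.61 ± 0.07; 55.9% of its exon bases overlap the gene model Gm26669.

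**Figure D1:**
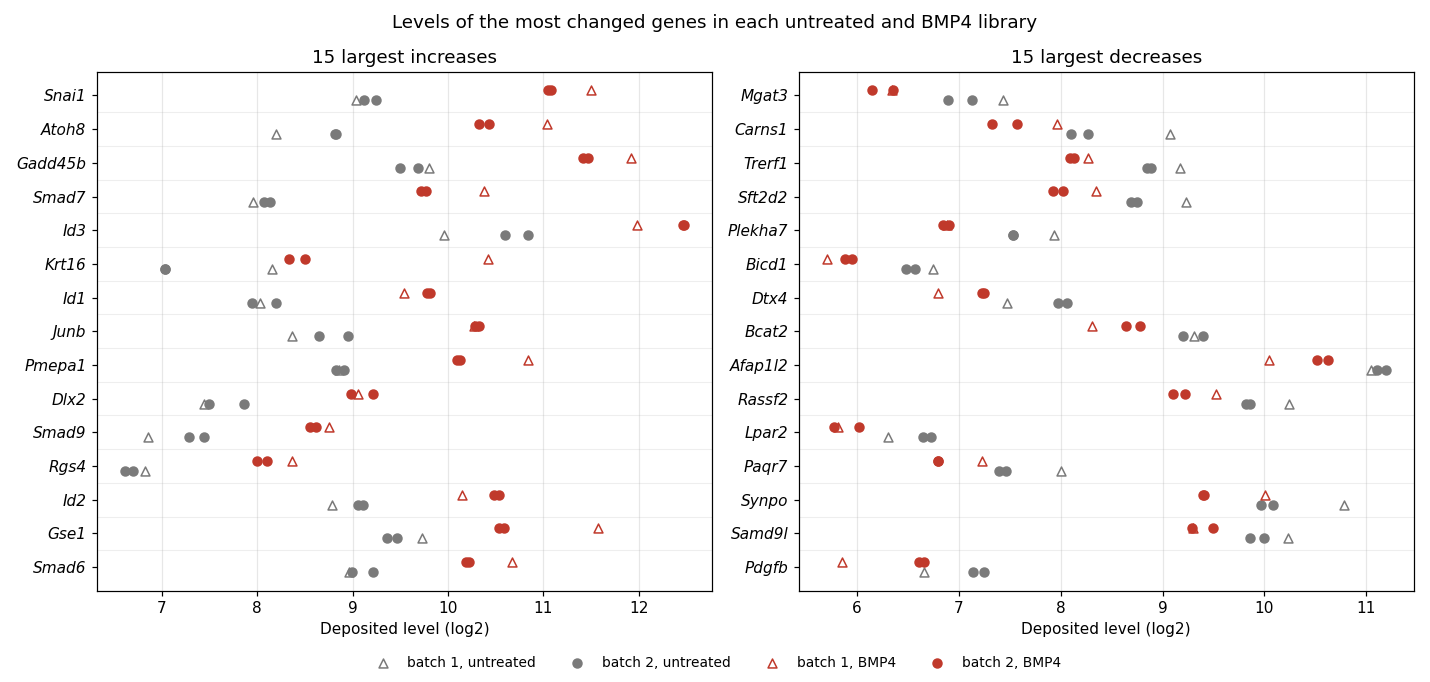
Deposited log2 levels (x axis) of the 15 genes with the largest rise (left) and the 15 with the largest fall (right) after BMP4, 1 point per library. Grey is untreated, red is BMP4, open triangles are batch 1 and filled circles batch 2. The groups do not overlap for any of the 15 rises, and overlap among the falls for Synpo alone. Over all genes tested, 7.73% separated upwards and 6.91% downwards, and the genes shown were picked by size and call from these libraries.

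Promoter sequence was examined for the GC-rich element that BMP-activated Smads bind. RefSeq promoters (GRCm38.p6, the build called mm10 in the file headers) were matched by symbol for 9312 of the 11765 genes, and 8892 had the same start as the deposited entry. The palindrome GGCGCC, which reads alike on both strands, lay within the 250 bases before the start in 18.0% of these promoters. It was present in 24.8% of the promoters of genes that rose (143 of 577) and in 18.1% of those of genes that fell (86 of 476). GC content differed between the same sets, with medians of 60.8% over all promoters, 64.8% for genes that rose and 63.2% for genes that fell, and its part in the motif shares was not tested. The shorter Smad element GTCTG, on either strand, was in 40.4% of all promoters, 36.9% of those that rose and 40.1% of those that fell. A match of letters describes the sequence and is not evidence of binding. Of the 15 genes with the largest rises 11 had a matched promoter; 3 of these carry GGCGCC (Dlx2, Smad9 and Id2), and 8, the promoters of Snai1, Atoh8, Gadd45b and Id3 among them, do not. Of the 15 largest falls 7 had one, and 0 carry it. The promoters of 4 genes whose rise is described below are printed, chosen because they hold the element and so not as typical of genes that rose: the homeobox gene Dlx2, the ligand gene Wnt11, the receptor gene Fgfr3 and the actin regulator Enah. Each sequence runs 5′ to 3′ on the strand of its gene and ends at the base before the start, with GGCGCC in capitals.
Dlx2 (chr2:71546755-71547004, minus strand): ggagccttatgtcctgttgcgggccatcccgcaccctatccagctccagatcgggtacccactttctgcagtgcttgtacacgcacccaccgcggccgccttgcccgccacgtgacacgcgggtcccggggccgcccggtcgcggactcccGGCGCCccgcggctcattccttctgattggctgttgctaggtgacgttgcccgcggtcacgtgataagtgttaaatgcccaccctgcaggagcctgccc
Wnt11 (chr7:98834862-98835111, plus strand): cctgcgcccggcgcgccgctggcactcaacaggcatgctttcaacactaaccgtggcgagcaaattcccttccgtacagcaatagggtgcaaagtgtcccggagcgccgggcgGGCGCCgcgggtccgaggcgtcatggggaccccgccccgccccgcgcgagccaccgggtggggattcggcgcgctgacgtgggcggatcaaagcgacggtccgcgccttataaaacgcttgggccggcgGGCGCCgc
Fgfr3 (chr5:33721474-33721723, plus strand): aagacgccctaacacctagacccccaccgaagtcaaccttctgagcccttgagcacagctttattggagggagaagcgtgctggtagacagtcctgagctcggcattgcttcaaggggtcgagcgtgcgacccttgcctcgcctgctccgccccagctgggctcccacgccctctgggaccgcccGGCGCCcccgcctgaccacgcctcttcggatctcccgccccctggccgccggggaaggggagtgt
Enah (chr1:182019981-182020230, minus strand): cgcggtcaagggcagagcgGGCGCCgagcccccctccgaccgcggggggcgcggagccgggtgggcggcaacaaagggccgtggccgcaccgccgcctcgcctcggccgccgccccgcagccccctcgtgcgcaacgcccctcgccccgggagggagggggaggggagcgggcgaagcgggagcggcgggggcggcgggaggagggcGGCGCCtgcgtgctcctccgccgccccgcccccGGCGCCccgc
Dlx2 has 1 copy, 99 bases before the start, and Fgfr3 has 1 copy at 65 bases. Wnt11 has 2 copies, at 137 and 8 bases, and Enah has 3, at 231, 43 and 10 bases. None of the 4 windows holds GTCTG on either strand.

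Among transcription factors of the early skeletal lineage Dlx2, a distal-less homeobox gene, had the largest rise on the deposited log2 scale. Of 43 tested members of a 58-gene list, 15 rose and 4 fell, with a median difference of 0.11. Dlx2 (chr2:71543408-71546754, minus strand), which patterns the neural crest skeleton, was at 7.44, 7.49 and 7.86 without BMP4 and 9.06, 8.98 and 9.21 with it (1.49 ± 0.09). All 3 BMP4 libraries lay more than 1 log2 unit above the highest untreated one. The neighbouring gene Dlx1 rose by 0.78 ± 0.08, Dlx3 by 0.60 ± 0.10 and Dlx5, a direct regulator of osteoblast genes, by 0.54 ± 0.08. Dlx6 was not called (0.22 ± 0.08; limma, adjusted p = 0.0769). Sp7, the osterix factor needed for osteoblast commitment, was at 5.60, 4.91 and 4.88 without BMP4 and 6.71, 5.64 and 5.45 with it (0.80 ± 0.12). The 2 groups of Sp7 overlap across batches and separate within each batch; at this low level the fold change in the authors' deposited table is 1.95. Creb3l1, the endoplasmic reticulum transcription factor that promotes collagen secretion in osteoblasts, stood at 10.46, 10.67 and 10.77 without BMP4 and 11.63, 11.31 and 11.38 with it (0.81 ± 0.08). Runx2, the factor upstream of Sp7, was at 10.71, 10.45 and 10.41 without BMP4 and 11.08, 10.52 and 10.44 with it, a difference of 0.16 ± 0.07 that did not pass the test (limma, adjusted p = 0.127). Further rises were those of Tbx3, a limb T-box repressor (0.56 ± 0.10), Prrx2, a limb mesenchyme homeobox gene (0.53 ± 0.07), Sox9, the chondrocyte determinant (0.46 ± 0.09), Foxc2 (0.46 ± 0.09), Sox11 (0.36 ± 0.07) and Trps1 (0.32 ± 0.07). Members that fell included Osr1, a factor of early joint and connective tissue mesenchyme (-0.44 ± 0.10), Ebf1 (-0.37 ± 0.10) and Bhlhe41 (-0.33 ± 0.10), and none of these 3 kept its call in every fit that left out 1 library (largest limma adjusted p = 0.0922 without untreated replicate 1, 0.0974 without BMP4 replicate 1 and 0.181 without BMP4 replicate 1). Within batch 2 alone Trps1 differed by 0.20 and Osr1 by -0.21, and without BMP4 replicate 1 by 0.21 and -0.27. By the adjusted p of the authors' deposited table, Osr1 (0.189) and Bhlhe41 (0.081) were not called. Counts of rises and falls became 15 and 1 without untreated replicate 1, 13 and 1 without BMP4 replicate 1, 13 and 2 without untreated replicate 2 and 14 and 2 without BMP4 replicate 2.

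Products of differentiated skeletal cells included 3 rises that held in each of the 6 fits that left out 1 library. Of 34 listed genes, 17 were above the minimum and 5 of these rose, with a median of 0.10. Under quantile normalization 3 of them rose. Tnfrsf11b, which encodes the osteoclast inhibitor osteoprotegerin, was at 9.07, 9.76 and 9.67 without BMP4 and 9.86, 10.22 and 10.36 with it (0.65 ± 0.08). Pth1r, the parathyroid hormone receptor, was at 9.19, 8.59 and 8.74 without BMP4 and 9.88, 9.30 and 9.26 with it (0.64 ± 0.09). Col2a1, the collagen of cartilage, was at 14.52, 14.69 and 14.80 without BMP4 and 15.74, 15.07 and 15.15 with it (0.65 ± 0.14), and its highest library was BMP4 replicate 1. Without that library Col2a1 differed by 0.39, and within batch 2 alone by 0.37. Its adjusted p in the authors' deposited table was 0.174, so it was not called there. Those 3 kept their calls whichever library was left out, whereas Postn (0.20 ± 0.06; limma, adjusted p = 0.249 without untreated replicate 1) and Ank (0.20 ± 0.06; adjusted p = 0.334 without untreated replicate 1) did not, and leaving out untreated replicate 1, BMP4 replicate 1 or BMP4 replicate 2 gave 3 rises each. Within batch 2 alone Postn differed by 0.14 and Ank by 0.07. Ank differed by 0.11 without untreated replicate 1 and by 0.12 without BMP4 replicate 1. By the adjusted p of the authors' deposited table (0.0972) Ank was not called. Col1a1, the main bone collagen, differed by 0.04 ± 0.08 (limma, adjusted p = 0.848). Among transcription factors of other mesenchymal fates, 9 of 27 were tested, 5 rose and 0 fell. The immediate early factor Egr1 (0.45 ± 0.07), the preadipocyte factor Zfp423 (0.37 ± 0.08) and the neural crest and muscle factor Pax3 (0.33 ± 0.06) kept their calls in all 6 fits, and 3 of the list rose without BMP4 replicate 2 or without BMP4 replicate 3. Egr1 is counted again below with the immediate early genes. The muscle determinants Myod1 and Myog were below the minimum level.

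Parts of the TGF-beta superfamily pathway itself moved in both directions. Among 39 tested ligands, receptors, carriers and Smads, 6 rose and 7 fell, with a median of 0.01. The ligand gene Tgfb3 stood at 10.85, 10.34 and 10.44 without BMP4 and 12.10, 11.30 and 11.29 with it (1.02 ± 0.07). Its groups were apart, as upwards for 7.73% of genes tested. Ltbp2, an extracellular matrix protein related to the latent TGF-beta binding proteins, rose by 0.68 ± 0.12. Within batch 2 alone it differed by 0.37, and without untreated replicate 1 by 0.42. By the adjusted p of the authors' deposited table (0.0543) Ltbp2 was not called. Bmpr2, the main type II receptor for BMPs, was at 10.88, 10.90 and 10.79 without BMP4 and 11.67, 11.40 and 11.40 with it (0.63 ± 0.06). On the TGF-beta side the type II receptor Tgfbr2 fell by 0.36 ± 0.06, the coreceptor Tgfbr3 by 0.43 ± 0.08 and Smad3, the Smad of TGF-beta and activin receptors, by 0.29 ± 0.05. Transcripts of the type I receptor Bmpr1a differed by 0.12 ± 0.06 and those of Tgfbr1 by 0.08 ± 0.05, and neither passed the test. Outside these 39 genes the secreted BMP antagonist Nog rose by 0.43 ± 0.09. Smurf2, a ubiquitin ligase for Smads and receptors, rose by 0.46 ± 0.05, and Skil, a nuclear corepressor of Smads, by 1.21 ± 0.13. Smurf2 and Skil were counted above with the direct targets and feedback inhibitors. Of the 13 called among the 39, 6 kept their calls in all 6 fits. Rises and falls among the 39 numbered 4 and 3 without untreated replicate 1, 3 and 5 without BMP4 replicate 1 and 5 and 4 without BMP4 replicate 2.

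In the Wnt pathway, of 42 tested members, 9 rose and 3 fell, and the list's median was 0.00754. Under quantile normalization 9 rose and 5 fell. Wnt11 (chr7:98835112-98854747, plus strand), a ligand of the non-canonical branch, was at 5.98, 6.25 and 6.33 without BMP4 and 7.37, 7.33 and 7.46 with it (1.20 ± 0.08), and its level of about 6 places it in the compressed range. The authors' deposited table gives 2.08 for it. Lef1 and Tcf7 encode nuclear partners of beta-catenin. Lef1 was at 5.11, 5.11 and 5.12 without BMP4 and 6.27, 6.11 and 5.67 with it (0.90 ± 0.10), also in the compressed range. The authors' deposited table gives 2.37 for Lef1 and 2.31 for Snai1. Tcf7 rose by 0.68 ± 0.07. Among Frizzled receptors, Fzd7 was at 9.62, 9.42 and 9.44 without BMP4 and 10.79, 10.14 and 10.16 with it (0.87 ± 0.08), Fzd9, whose loss lowers bone formation in mice, rose by 0.82 ± 0.10, and Fzd1 by 0.47 ± 0.07. The ligand Wnt4 rose by 0.60 ± 0.11, while Wnt9a fell by 0.35 ± 0.07. By the adjusted p of the authors' deposited table (0.0533) Wnt9a was not called. Axin2, a general readout of beta-catenin signalling, was at 5.92, 5.97 and 5.82 without BMP4 and 5.84, 5.97 and 5.67 with it, a difference of -0.08 ± 0.08 (limma, adjusted p = 0.629).

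In the Notch pathway 3 of 17 tested genes rose and 3 fell (median 0.0007). Lfng, a glycosyltransferase that tunes which ligands Notch receptors answer to, was at 9.00, 8.51 and 8.78 without BMP4 and 10.47, 9.63 and 9.79 with it (1.20 ± 0.11). Hes1, a repressor downstream of Notch that is also a BMP target, rose by 0.88 ± 0.11 and was counted above with the direct targets too. The ubiquitin ligase gene Dtx4, of the Deltex family that handles Notch receptors, was at 7.48, 8.06 and 7.97 without BMP4 and 6.79, 7.23 and 7.24 with it and fell by 0.75 ± 0.09. Its relative Dtx3l fell by 0.55 ± 0.08. Dtx3l is also on the list of interferon and NF-kB genes and is counted among the falls there. Of 10 tested hedgehog genes 2 rose, Kif7, a kinesin that regulates Gli factors at the cilium (0.47 ± 0.10), and the coreceptor Gas1 (0.35 ± 0.08). Without BMP4 replicate 1 Kif7 differed by 0.29. Ptch1 (0.22 ± 0.08) and Gli1 (0.11 ± 0.09), which report hedgehog activity, were not called.

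Receptor tyrosine kinases and their ligands were divided evenly, with 9 of 42 tested genes higher and 9 lower (median -0.02). Fgfr3 (chr5:33721724-33737068, plus strand), the fibroblast growth factor receptor that restrains cartilage growth, was at 6.74, 6.75 and 6.78 without BMP4 and 8.08, 7.64 and 7.79 with it (1.08 ± 0.11). Ddr1, a kinase receptor for collagen, was at 11.90, 11.90 and 12.02 without BMP4 and 12.76, 12.64 and 12.68 with it (0.75 ± 0.05). Both receptors were higher in every BMP4 library than in any untreated one, as were 7.73% of genes tested. Pdgfrb, a platelet-derived growth factor receptor of mesenchyme, rose by 0.36 ± 0.06, and Igfbp5, a binding protein for insulin-like growth factors in bone, by 0.59 ± 0.13. The Igfbp5 difference was 1.13 in batch 1 and 0.31 in batch 2. By the adjusted p of the authors' deposited table (0.083) Igfbp5 was not called. The ligand Pdgfb moved the other way, at 6.66, 7.14 and 7.24 without BMP4 and 5.85, 6.61 and 6.65 with it (-0.64 ± 0.12). Mertk, a receptor for engulfment of dying cells, fell by 0.54 ± 0.09, and the ligand Vegfd by 0.38 ± 0.08. Counts in this list were sensitive to single libraries, at 7 and 4 without untreated replicate 1, 5 and 8 without BMP4 replicate 1, 5 and 6 without untreated replicate 3 and 6 and 5 without BMP4 replicate 3 for rises and falls.

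Immediate early genes and feedback regulators of the ERK pathway rose in most called cases, 14 of 39 tested against 1 lower (median 0.12). Junb, an AP-1 subunit, was at 8.37, 8.65 and 8.95 without BMP4 and 10.27, 10.33 and 10.28 with it (1.64 ± 0.09). The untreated libraries differed among themselves more than the 3 BMP4 libraries did, and the groups were apart, as upwards for 7.73% of genes tested. Fos rose by 0.75 ± 0.09, Klf10, a zinc-finger gene also induced by TGF-beta, by 0.81 ± 0.15, Fosl2 by 0.53 ± 0.08 and Ier3 by 0.54 ± 0.10. The phosphatase genes Dusp1 and Dusp6, whose products dephosphorylate MAP kinases, rose by 0.61 ± 0.10 and 0.51 ± 0.10. Within batch 2 alone Klf10 differed by 0.54 and Fosl2 by 0.33, and without untreated replicate 1 by 0.51 and 0.35. Rises and falls numbered 8 and 0 without untreated replicate 1, 10 and 2 without BMP4 replicate 1, 12 and 0 without BMP4 replicate 2 and 12 and 2 without BMP4 replicate 3. Under quantile normalization they numbered 13 and 2.

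Axon guidance receptors, which also steer mesenchymal and endothelial cells, included a pair of large rises among 5 rises and 2 falls in 33 tested genes (median -0.04). Plxnd1, a semaphorin receptor, was at 9.58, 9.68 and 9.81 without BMP4 and 10.58, 10.67 and 10.66 with it (0.95 ± 0.06), and the netrin receptor Unc5b was at 8.58, 8.26 and 8.67 without BMP4 and 9.64, 9.36 and 9.25 with it (0.92 ± 0.09). Plxna2 rose by 0.62 ± 0.09 and Plxna3, of the same plexin subfamily, fell by 0.48 ± 0.07. Counts were 3 and 1 without untreated replicate 1, 3 and 3 without BMP4 replicate 1 and 6 and 1 without BMP4 replicate 2. Among 36 tested genes of G protein, cyclic AMP and calcium signalling, 8 rose and 3 fell (median 0.04), and the counts became 7 and 1 without untreated replicate 1, 7 and 1 without untreated replicate 2 and 8 and 1 without BMP4 replicate 2. Rgs4 (chr1:169741477-169747642, minus strand), which speeds the shut-off of G proteins, was at 6.82, 6.69 and 6.61 without BMP4 and 8.36, 8.10 and 8.00 with it (1.44 ± 0.09). Nfatc2, a calcium-dependent transcription factor, rose by 0.68 ± 0.13, the lysophosphatidic acid receptor Lpar1 by 0.46 ± 0.06 and the phosphodiesterase Pde4b by 0.38 ± 0.08. A second receptor for the same lipid, Lpar2, is not on that list and not among its falls. It was at 6.31, 6.65 and 6.72 without BMP4 and 5.81, 6.01 and 5.78 with it and fell by 0.69 ± 0.10.

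**Figure D2:**
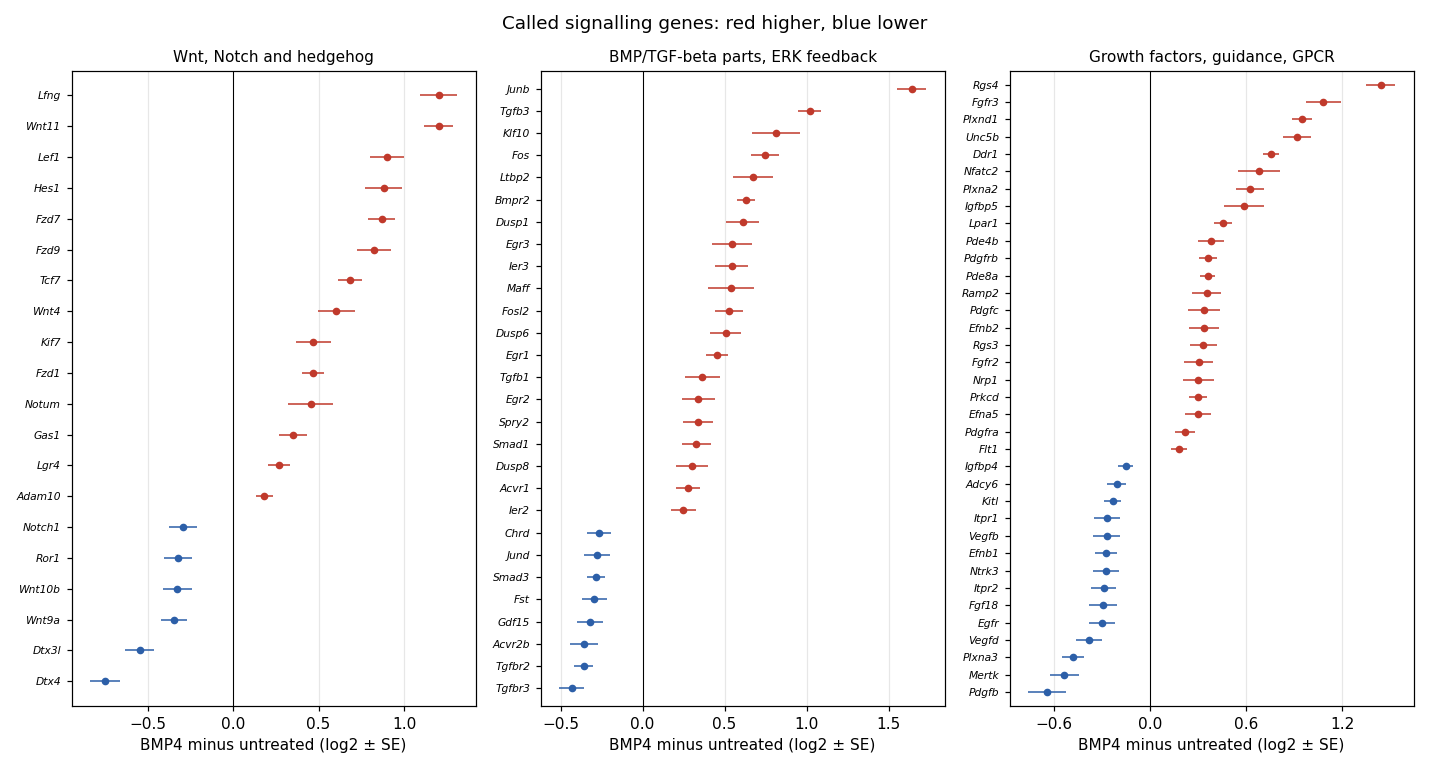
BMP4 minus untreated difference on the log2 scale ± SE (x axis) for signalling genes that passed the test, in panels for Wnt, Notch and hedgehog, for TGF-beta superfamily parts and ERK feedback, and for growth factors, guidance and G protein signalling. Red genes rose and blue fell; Junb at 1.64 and Rgs4 at 1.44 are the highest points and Dtx4 at -0.75 the lowest.

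Genes of the actin cytoskeleton and its small GTPases changed in both directions, with 17 of 105 tested genes higher, 14 lower and a median of -0.0029. Enah (chr1:181896386-182019980, minus strand), which lengthens actin filaments at the leading edge of cells, was at 9.94, 8.88 and 8.87 without BMP4 and 11.20, 9.74 and 9.65 with it (0.97 ± 0.07). Its untreated batch 1 library lay above the BMP4 libraries of batch 2, so the groups overlap across batches and separate within them. Myo1d, a membrane-linked myosin motor, was at 7.42, 7.40 and 7.59 without BMP4 and 8.48, 8.42 and 8.39 with it (0.96 ± 0.09). Arhgef28, a guanine nucleotide exchange factor, was at 8.77, 8.09 and 8.06 without BMP4 and 9.63, 9.13 and 9.06 with it (0.96 ± 0.09). Myo10, the myosin of filopodial tips, rose by 0.67 ± 0.08, Rflnb, a filamin partner with a role in cartilage, by 0.65 ± 0.12, the LIM protein Csrp2 by 0.63 ± 0.08 and the membrane-actin linker Rdx by 0.32 ± 0.05. Without BMP4 replicate 1 the Rflnb difference was 0.39. Falls included Synpo, an actin-bundling partner of alpha-actinin, at 10.79, 9.97 and 10.09 without BMP4 and 10.00, 9.40 and 9.41 with it (-0.68 ± 0.06). The next was Lmod1, an actin nucleator of smooth muscle (-0.53 ± 0.09), followed by the LIM cofactor Fhl2 (-0.48 ± 0.08), the filamin Flnc (-0.35 ± 0.06) and Ezr (-0.27 ± 0.05), a relative of Rdx. The contractile genes Acta2 (-0.07 ± 0.05), Tagln (-0.07 ± 0.06) and Myl9 (-0.13 ± 0.06) did not pass the test. Of the 31 called genes 19 kept their calls in all 6 fits, and rises and falls numbered 13 and 8 without untreated replicate 1, 17 and 9 without untreated replicate 2, 18 and 7 without untreated replicate 3, 16 and 9 without BMP4 replicate 2 and 17 and 9 without BMP4 replicate 3.

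Genes of intermediate filaments and their attachment plaques changed in both directions, with 5 of 17 tested genes higher and 3 lower (median 0.05). Krt16, a stress keratin of the epidermis, was at 8.15, 7.03 and 7.03 without BMP4 and 10.42, 8.34 and 8.50 with it (1.68 ± 0.13). The batch 1 pair stood above the batch 2 libraries by more than 1 log2 unit within each group. Krt14, its basal epidermal relative, was at 13.71, 12.97 and 13.06 without BMP4 and 14.69, 13.48 and 13.55 with it (0.66 ± 0.08). The junction protein Jup and the lamin gene Lmna rose by 0.42 ± 0.07 and 0.43 ± 0.08 (Lmna 0.27 within batch 2 alone). By the adjusted p of the authors' deposited table (0.081) Lmna was not called. The 3 falls were those of the filament protein Synm (-0.42 ± 0.13), the keratin Krt80 (-0.30 ± 0.10) and the cytoskeletal linker Plec (-0.25 ± 0.06), and each lost its call in at least 1 fit that left out a library (largest limma adjusted p = 0.265 without untreated replicate 1, 0.231 without untreated replicate 3 and 0.0614 without untreated replicate 3). Without untreated replicate 1 Synm differed by -0.27. By the adjusted p of the authors' deposited table (0.1004) Krt80 was not called. Keratin genes are similar in sequence, and how the counting divided shared reads is not given in the sources used here. Of 8 epithelial markers only Krt14 and Cdh1 reached the minimum level. Cdh1, the epithelial cadherin, fell by 0.37 ± 0.09, a call lost without untreated replicate 1 (limma, adjusted p = 0.0816), and Epcam and Cldn4 were at 0 in every library. The summed linear level of the 8 markers was 8090 to 13500 in untreated and 11500 to 26500 in BMP4 libraries, nearly all of it Krt14, and the part of epithelial-type cells in these values was not tested. Without untreated replicate 3 the list had 5 rises and 0 falls, and without BMP4 replicate 3 it had 5 and 1. In the microtubule and transport list, 5 of 52 rose (9.62%) and 6 fell (11.5%), with a median of 0.02. The counts became 2 and 5 without untreated replicate 1, 3 and 6 without untreated replicate 3 and 2 and 4 without BMP4 replicate 3. Under quantile normalization they were 2 and 7. Kif26b, a kinesin of the Wnt5a and Ror pathway, was at 7.91, 7.47 and 7.52 without BMP4 and 8.88, 8.44 and 8.48 with it (0.97 ± 0.11), and the tubulin Tubb3 rose by 0.43 ± 0.07. Plekha7, which ties adherens junctions to microtubules, was at 7.94, 7.53 and 7.53 without BMP4 and 6.89, 6.90 and 6.84 with it (-0.79 ± 0.11). Bicd1, a dynein adaptor, was at 6.74, 6.48 and 6.56 without BMP4 and 5.70, 5.88 and 5.95 with it (-0.75 ± 0.12). Map1a, a microtubule stabiliser, fell by 0.37 ± 0.08.

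Adhesion and junction genes gave 9 rises and 7 falls among 45 tested (median -0.0023), and the rises dropped to 3 under quantile normalization. Gja1, the connexin of osteoblast gap junctions, was at 12.08, 12.00 and 12.00 without BMP4 and 12.89, 12.60 and 12.58 with it (0.66 ± 0.06). Itga3, a laminin-binding integrin chain, was at 8.25, 8.37 and 8.43 without BMP4 and 7.56, 7.84 and 7.94 with it (-0.57 ± 0.07), and the focal adhesion protein Tns2 was at 11.00, 10.73 and 10.82 without BMP4 and 10.30, 10.27 and 10.28 with it (-0.56 ± 0.06). Leaving out 1 library gave 3 and 4 without untreated replicate 1, 4 and 7 without BMP4 replicate 1, 10 and 4 without untreated replicate 2, 7 and 4 without untreated replicate 3 and 8 and 4 without BMP4 replicate 2 for rises and falls, and 6 of the 16 calls held in every such fit. Target genes of the YAP and SRF coactivator systems, which respond to cell tension, gave 8 rises and 5 falls among 30 (median -0.03), and leaving out 1 library gave 5 and 4 without untreated replicate 1, 8 and 3 without untreated replicate 3 and 5 and 5 without BMP4 replicate 3. Ccn1, a matricellular protein, was at 11.79, 11.55 and 11.67 without BMP4 and 13.36, 12.60 and 12.64 with it (1.20 ± 0.09), and its relatives Ccn5 and Ccn2 rose by 0.53 ± 0.05 and 0.51 ± 0.11, the last overlapping another gene model over 23.2% of its exon bases. Ccn2 differed by 0.30 within batch 2 alone and by 0.33 without untreated replicate 1. Ankrd1, a further gene of this kind, was at 9.42, 9.05 and 8.85 without BMP4 and 9.37, 8.78 and 8.77 with it, a difference of -0.13 ± 0.07 that did not pass (limma, adjusted p = 0.273). Ajuba and Vgll3, which encode a LIM protein and a TEAD cofactor, fell by 0.41 ± 0.06 and 0.38 ± 0.05.

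**Figure D3:**
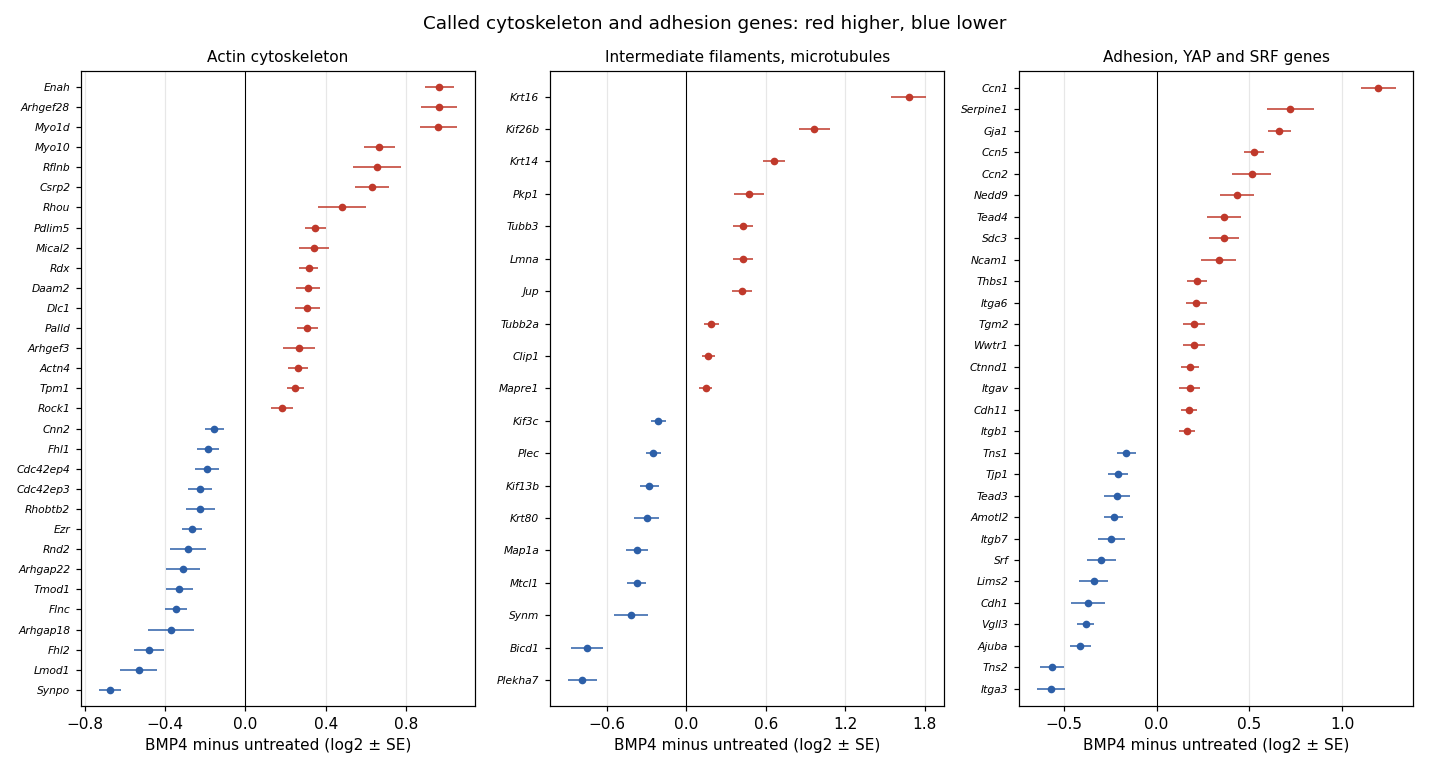
BMP4 minus untreated difference on the log2 scale ± SE (x axis) for called genes of the actin cytoskeleton (left), of intermediate filaments and microtubules (middle), and of adhesion and YAP or SRF response (right). Red genes rose and blue fell; Krt16 at 1.68 and Ccn1 at 1.20 are the highest points and Plekha7 at -0.79 the lowest.

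The genes with the largest falls had varied functions, and each fell by less than 1 log2 unit on the deposited scale. For 8 of these 15 the authors' deposited table gives a fall of more than 1 log2 unit. Mgat3 (chr15:80173721-80215519, plus strand), which adds the bisecting N-acetylglucosamine to N-glycans, was at 7.43, 7.12 and 6.89 without BMP4 and 6.34, 6.15 and 6.35 with it (-0.87 ± 0.10), and the authors' deposited table gives -1.53 for it. Carns1, the synthase of the dipeptide carnosine, was at 9.07, 8.26 and 8.10 without BMP4 and 7.97, 7.32 and 7.57 with it (-0.86 ± 0.11). The Carns1 exons overlap 2 other gene models, Gm17552 on the opposite strand over 40.3% and AC109138.8 on the same strand over 29.7% of their bases. Trerf1, a zinc-finger regulator of steroidogenic genes, was at 9.17, 8.85 and 8.89 without BMP4 and 8.27, 8.13 and 8.10 with it (-0.80 ± 0.09). Sft2d2, a Golgi membrane protein of the vesicle fusion machinery, was at 9.23, 8.69 and 8.74 without BMP4 and 8.35, 8.02 and 7.92 with it (-0.79 ± 0.09). Both genes were lower in every BMP4 library than in any untreated one. Bcat2, the mitochondrial enzyme that starts breakdown of branched-chain amino acids, was at 9.31, 9.20 and 9.40 without BMP4 and 8.31, 8.78 and 8.64 with it (-0.73 ± 0.09). Afap1l2, an adaptor of the Src kinase, was at 11.05, 11.11 and 11.19 without BMP4 and 10.05, 10.52 and 10.63 with it (-0.72 ± 0.08). The drop was larger in batch 1 than in batch 2. Rassf2, a Ras-binding protein with a role in bone, was at 10.25, 9.82 and 9.86 without BMP4 and 9.53, 9.10 and 9.22 with it (-0.69 ± 0.06). Paqr7, a membrane progestin receptor, was at 8.00, 7.39 and 7.47 without BMP4 and 7.22, 6.80 and 6.80 with it (-0.68 ± 0.09). The interferon-inducible gene Samd9l was at 10.24, 9.99 and 9.86 without BMP4 and 9.30, 9.50 and 9.29 with it (-0.67 ± 0.10). All BMP4 libraries lay below all untreated ones for 6.91% of genes tested. The 15 largest falls were picked by size and call from the same libraries, and 14 had groups that did not overlap. Synpo is the exception, where the batch 1 BMP4 library lay within the untreated range.

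Glycan and Golgi genes as a list gave 6 rises and 3 falls among 46 tested (median 0.00795), and 6 and 5 without untreated replicate 2. Ext1, an enzyme of heparan sulfate chain growth, rose by 0.39 ± 0.07 while Mgat3 and Sft2d2 fell. In a list of repressors and chromatin cofactors 4 rose and 6 fell among 18 (median -0.02), or 4 and 3 without untreated replicate 3. The Polycomb protein gene Cbx7 was among the falls (-0.50 ± 0.08). Nuclear receptor and clock genes had 7 rises and 4 falls among 37 (median 0.00337). Leaving out 1 library gave 2 and 2 without untreated replicate 1, 0 and 5 without BMP4 replicate 1, 4 and 6 without untreated replicate 2 and 4 and 4 without BMP4 replicate 3.

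Death and p53-linked genes changed in both directions, with 8 of 36 tested genes lower, 4 higher and a median of -0.07. Pmaip1, which encodes the pro-death BH3 protein NOXA, was at 7.56, 7.74 and 7.71 without BMP4 and 6.81, 7.32 and 7.31 with it (-0.52 ± 0.11). Bid, a BH3 protein that links death receptors to mitochondria, was at 9.91, 9.87 and 9.84 without BMP4 and 9.21, 9.50 and 9.45 with it (-0.48 ± 0.06). Tnfrsf10b, a receptor for the death ligand TRAIL, fell by 0.25 ± 0.06, and Btg2, an antiproliferative p53 target, rose by 0.72 ± 0.07. These 4 genes kept their calls in all 6 fits; the other 8 calls of the list did not, and rises and falls numbered 2 and 3 without untreated replicate 1, 2 and 3 without BMP4 replicate 1, 3 and 5 without untreated replicate 2, 4 and 5 without untreated replicate 3, 4 and 4 without BMP4 replicate 2 and 3 and 4 without BMP4 replicate 3. The p53 inhibitor Mdm2 differed by -0.11 ± 0.07 and was not called.

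Interferon and NF-kB genes had 9 falls (17.6%) and 3 rises (5.88%) among 51 tested (median -0.03). The share of rises was near the 6.75% of all genes tested. Under quantile normalization 5 genes of this list fell and 2 rose. Irf1, a transcription factor of the interferon response, was at 9.57, 9.74 and 9.70 without BMP4 and 8.74, 9.32 and 9.39 with it (-0.52 ± 0.10), and without BMP4 replicate 1 it differed by -0.30. The peptide transporter genes Tap1 and Tap2, which load class I molecules, fell by 0.46 ± 0.09 and 0.32 ± 0.06. The NF-kB inhibitor gene Nfkbia did not pass the test (0.37 ± 0.13; limma, adjusted p = 0.0751). Rises and falls numbered 0 and 5 without untreated replicate 1, 3 and 4 without BMP4 replicate 1, 1 and 6 without untreated replicate 3, 0 and 9 without BMP4 replicate 2 and 1 and 6 without BMP4 replicate 3. Of the 11 leukocyte markers, Cd14 (-0.12 ± 0.08), Lyz2 (-0.10 ± 0.07) and Cd68 (0.03 ± 0.07) were above the minimum and did not pass the test, and Adgre1, Cd3e and Tyrobp were at 0 throughout. The summed linear level of that list was 116 to 126 in untreated and 113 to 122 in BMP4 libraries, and the part of leukocytes in these values was not tested.

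Cell cycle genes had 6 falls and 0 rises among 33 tested, with a median of -0.10. E2f2, an activator of replication genes, was at 6.33, 6.22 and 6.21 without BMP4 and 5.89, 5.54 and 5.70 with it (-0.54 ± 0.09) and alone kept its call in each of the 6 fits. The number of falls was 1 without untreated replicate 1, 2 without BMP4 replicate 1 and 3 without BMP4 replicate 2. Metabolic genes had 7 rises and 9 falls among 44 (median 0.01), or 2 and 7 without untreated replicate 1. Under quantile normalization they had 4 rises and 11 falls. Txnip, a thioredoxin-binding brake on glucose uptake, fell by 0.38 ± 0.05, and the pyruvate dehydrogenase kinase Pdk2 by 0.36 ± 0.08.

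The same factor was also given to cells that had received TNFa, in libraries that share none with the comparison above; the reference libraries there are those whose titles carry p65. There 1373 genes passed (11.7% of genes tested), 643 higher (5.47%) and 730 lower (6.2%). Of the 1438 genes called for BMP4 alone, 1402 (97.5%) differed in the same direction when BMP4 was added to TNFa, against 72.1% of all tested genes. Passing the test in both settings and in the same direction were 798 genes, which are 55.5% of the first set and 58.1% of the second, and 2 genes passed in opposite directions. Snai1 rose by 1.91 ± 0.08 with TNFa present, Dlx2 by 1.56 ± 0.09, Wnt11 by 1.03 ± 0.08, Enah by 1.05 ± 0.07 and Lef1 by 1.04 ± 0.10. Mgat3 fell by 0.77 ± 0.10 and Carns1 by 0.65 ± 0.11. All 15 of the largest rises and 13 of the 15 largest falls were also called in the same direction with TNFa; the others were Lpar2, at -0.30 ± 0.10 (limma, adjusted p = 0.0669), and Pdgfb, which was higher. The difference between the BMP4 effects was itself tested for every gene and passed for 2 of 11765 (0.017%), 1 higher and 1 lower with TNFa (0.0085% each), with 560 genes at an unadjusted p under 0.05. The 2 genes were Pdgfb and Nfkbie, and these calls held in 4 and 5 of 12 fits that left out 1 library. Rgs4 rose by 1.44 alone and 0.80 with TNFa, a difference that did not pass (limma, adjusted p = 0.114).

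**Figure D4:**
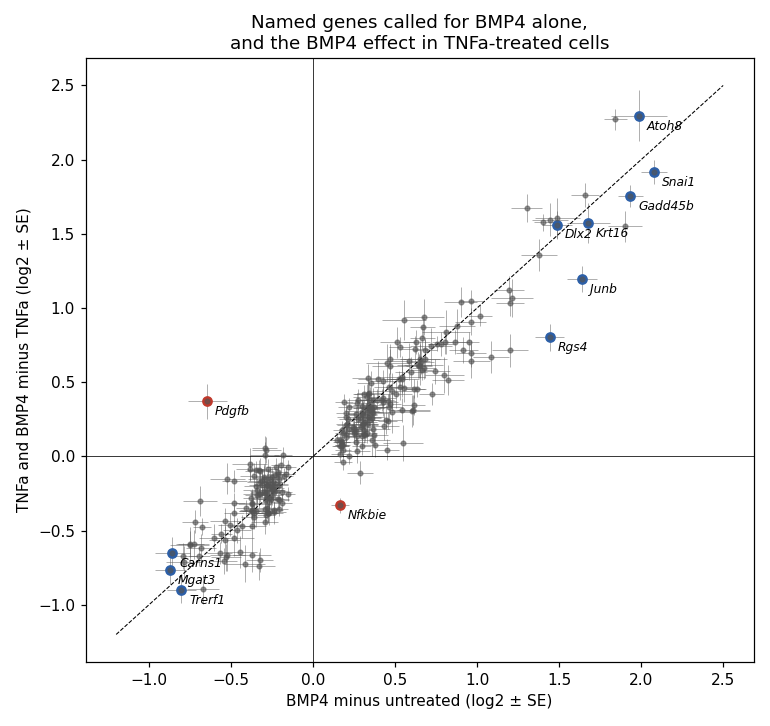
Each point is a named gene called for BMP4 alone, placed by its BMP4 minus untreated difference (x axis) and by its difference between TNFa with BMP4 and TNFa (y axis), both on the log2 scale with SE bars; the dashed line marks equal differences. Points lie along the line over most of the range, and Pdgfb (-0.64 and 0.37) and Nfkbie (0.16 and -0.33), in red, are the 2 whose effects differed by the test.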

How the data were processed

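RNA-seq (poly(A), 150-bp paired-end reads, per the labels) was measured in 12 libraries. Per the submitters' processing notes the authors used Trim Galore, HISAT2 and HOMER with mm10, with no versions given. Per the file headers, tags were counted over exons with 1 entry kept per gene, and the differential step took batch into account, numbering the batches the other way round from the labels. The deposited values are log2 levels per library, with the transformation not named, beside the authors' log2 fold changes and p-values. Here limma 3.58.1 in R 4.3.3 fitted 4 groups and an additive batch term to all 12 libraries (eBayes with a trend, 7 residual degrees of freedom) for genes with a mean log2 of at least 4, with Benjamini-Hochberg adjustment over all genes tested and calls at an adjusted p under 0.05. The fit was run on data simulated from the same model, with independent normal noise and equal effects in both batches. Such data cannot show how the fit behaves where the measured values depart from that model. Genes named are the 15 largest called rises and falls with the same direction in both batches, called members of the lists, and selected members without a call; the members and lists were chosen with earlier results of these data known. Precision is limited by 3 libraries a group at 13737314 to 20579256 tags. Other filters, scalings, fits with a replicate block and fits without single libraries were tried. Values of some genes are not reported here.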

Additional observations from a re-analysis of the deposited data

Results flagged for a closer look

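The BMP4 effect differed between cells with and without TNFa for 2 genes by a test of that difference itself across all 11765 genes. Pdgfb, a platelet-derived growth factor ligand, differed by -0.64 ± 0.12 after BMP4 alone and by 0.37 when BMP4 was added to TNFa, and the difference between these effects was 1.02 ± 0.17 (limma, adjusted p = 0.0382). Across 12 fits that each left out 1 library it ran from 0.79 to 1.15, and it passed in 4, with a largest adjusted p of 0.189 without untreated replicate 2. Nfkbie, an inhibitor of NF-kB, differed by 0.16 ± 0.05 alone and by -0.33 with TNFa, a difference of -0.49 ± 0.07 (limma, adjusted p = 0.02). Across the same 12 fits it ran from -0.52 to -0.46 and passed in 5, with a largest adjusted p of 0.112 without TNFa replicate 1. The rise of Nfkbie after BMP4 alone lost its call in 5 of the 6 fits that left out 1 of its libraries, with an adjusted p of up to 0.145 without untreated replicate 3. By the adjusted p of the authors' deposited table (0.551) that rise was not called.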

How the results depend on the processing

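For BMP4 against untreated, leaving out 1 library gave 756 to 1332 called genes, 438 to 752 higher and 318 to 580 lower, with the fewest without untreated replicate 1. With no batch term 114 passed (83 higher, 31 lower), and with no minimum level 424 genes fell. Leaving out 1 library gave 752 to 1066 calls for BMP4 added to TNFa, and 105 passed with no batch term. The test of the difference between the BMP4 effects called 0 genes with no batch term, 1 under quantile normalization, 1 with the replicate block, and 0 to 7 with 1 library left out (7 without BMP4 replicate 1). With the replicate block, 1329 genes passed for BMP4 alone, of which 1317 were among the 1438; replicates 2 and 3 deviated together between groups with correlations of 0.0199 to 0.164 across genes, so the numbers were not taken to pair the libraries. All 1438 called genes kept their sign in every alternative that tested them. Of 286 called genes that the text could name, 151 kept their call in all 6 fits without 1 of the untreated or BMP4 libraries, and 50 did so in every alternative. With 3 libraries a group, 1 of them alone in its batch, differences that missed the threshold are not shown to be absent.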

Other observations

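Genes that make or remodel hyaluronan, a matrix glycan of migrating and condensing mesenchyme, were looked up after the values of some had been seen. Of 16 such genes, all tested, 5 rose and 0 fell, against 6.75% and 5.47% of all genes tested. Because of how the genes were chosen, the count is no test of the set. The synthase Has2 was at 10.17, 9.93 and 9.87 without BMP4 and 10.67, 10.62 and 10.52 with it, a rise of 0.62 ± 0.06. Ugdh, which makes the precursor UDP-glucuronic acid, stood at 11.71, 11.70 and 11.61 and then at 12.82, 12.36 and 12.31 (0.82 ± 0.10). Gfpt2, at the entry of the hexosamine route to the other precursor, was at 8.85, 9.32 and 9.38 and then at 10.17, 10.17 and 10.06 (0.95 ± 0.10). Every BMP4 library lay above every untreated one for these 3 genes, as it did for 7.73% of all genes tested. Cemip, a protein of hyaluronan breakdown, rose by 0.40 ± 0.04, and Uap1, a later enzyme of the hexosamine route, by 0.34 ± 0.09. The first 4 kept their calls in all 6 fits that left out 1 library; Uap1 lost its call without untreated replicate 1 (limma, adjusted p = 0.131), BMP4 replicate 2 (adjusted p = 0.0527) or BMP4 replicate 3 (adjusted p = 0.0633). Has1 (-0.13 ± 0.12), Has3 (-0.02 ± 0.09), Gfpt1 (0.07 ± 0.05) and the receptor Cd44 (-0.10 ± 0.06) did not pass the test. When BMP4 was added to TNFa, the differences were 0.46 for Has2, 0.93 for Ugdh and 0.77 for Gfpt2.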
